A study of Mus musculus with 2 samples.

Results

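The p53 family, the MDM genes and 5 p53 target genes were examined in mouse lung cancer cells in which *p53* itself had been deleted. The group holds 10 of the 23183 genes with a value in the deposited files. It was chosen by gene symbol, with no measured value in the rule. *Trp53*, *Trp63* and *Trp73* are the family, and *Mdm2* and *Mdm4* encode proteins that bind and restrain p53. *Ccng1*, *Zmat3*, *Phlda3*, *Trp53inp1* and *Eda2r* are targets listed as not shared with the stress factor ATF4, which was not tested. The choice was made with earlier results of these data known. All 10 genes were found in both files. RNA-seq of poly(A) RNA gave 1 library of KPR- cells and 1 library of KPRrestored cells, with values in FPKM (fragments scaled to transcript length and library depth).

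KPR- cells were immortalized from lung cancers of mice, and the sources do not say how many lines gave the RNA. The mice carried Flp ERT2, a Tomato* reporter, *Runx3* flox/FSF, *p53* flox/flox and *K-Ras* LSL-G12D/+, and had received adenovirus with Cre under the CMV promoter. Both groups therefore share activated *K-Ras*, deleted *p53* and an inactivated *Runx3* flox allele. In KPR- cells (labelled RUNX3 -/-) a stop cassette also keeps the *Runx3* FSF allele off, and in KPRrestored cells (labelled RUNX3 -/+) 4-hydroxytamoxifen (4-OHT) activates the Flp recombinase that removes the cassette. The labels place KPR- at 0 h and KPRrestored at 16 h and list 1 μM 4-OHT for both. As each condition was sequenced once, no difference has a replicate check and no p-value was computed, and the effects of *Runx3*, of 4-OHT and of hours in culture cannot be told apart.

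p53 is a transcription factor that is stabilized by DNA damage or oncogene activity and then switches on genes for cell cycle arrest, apoptosis and repair. In unstressed cells MDM2, a ubiquitin ligase, marks p53 for destruction and MDM4 blocks its activating domain, while *Mdm2* is itself a p53 target, which closes a feedback loop. Oncogenic Ras is known to engage the pathway through Arf, which binds MDM2. The relatives p63 and p73 recognize similar DNA but serve other programs, p63 in basal and squamous epithelium and p73 in multiciliated cells.

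Depth was estimated from the steps that whole fragments leave in low FPKM values, at about 21900000 fragments for KPR- and 22400000 for KPRrestored. Fragments per gene follow from these depths and the length of the longest transcript, and the 95% intervals given with log2 differences are exact Clopper-Pearson limits that cover counting error only. *Runx3* had 0.348 FPKM in KPR- and 0.349 in KPRrestored, about 28 and 29 fragments. Its log2 difference was 0.0074, with an interval of -0.78 to 0.82. The value of *Runx3* per gene thus shows no rise in KPRrestored and does not check the labels. The labelled lung cancer origin was set against cell type markers. All 6 markers of epithelium in general were expressed, here meaning an FPKM that averaged 1 or more over both libraries, with *Krt8* (keratin 8) at 1711 and 1631 FPKM, whereas the alveolar and airway markers *Sftpc*, *Sftpb*, *Sftpa1*, *Scgb1a1* and *Lamp3* were listed at 0 in both libraries. Of the other alveolar and airway markers among the 11, *Aqp5* (146 and 106 FPKM) and *Abca3* (18.2 and 14.6 FPKM) were expressed, *Ager* had 0.708 and 0.920 FPKM, and *Nkx2-1*, *Hopx* and *Pdpn* had at most about 3 fragments in a library. Markers of other cell types that the culture could hold summed to 12.7 and 5.35 FPKM for 7 fibroblast genes, to 3.08 and 6.79 for 6 leukocyte genes and to 1.16 and 2.22 for 4 endothelial genes, in KPR- and KPRrestored. Each sum came mostly from 1 gene, *Col1a1* (12.2 and 4.21 FPKM), *Cd68* (3.08 and 6.78) and *Kdr* (1.10 and 2.05). The fibroblast gene *Dcn* went against its sum, with 0.173 and 0.742 FPKM, and the endothelial gene *Cdh5* was listed at 0 in KPR- and had about 12 fragments in KPRrestored. The leukocyte marker *Ptprc* was listed at 0 in KPR- and at 0.00892 FPKM in KPRrestored, and the other leukocyte genes at 0 in both. Their part in the differences below was not tested.

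*Trp53*, the gene of p53, lies on chromosome 11 of GRCm38 (mm10) from 69580359 to 69591873. It had 2.12 FPKM in KPR- and 2.17 FPKM in KPRrestored, from about 77 and 81 fragments. The level was thus low but not 0 in either library, and 10271 of the 23183 genes had a higher value in KPR-. The log2 difference was 0.03, with an interval of -0.43 to 0.51. The value covers the whole gene and does not show which exons the fragments came from. The longest coding transcript has 1867 bases, of which the first exon holds 157 and the last 619. The annotation also places a processed pseudogene of *Trp53* elsewhere, which is not among the listed genes, so reads shared with it cannot be told apart from those of *Trp53*.

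*Trp63* (chromosome 16, 25683763 to 25892102) and *Trp73* (chromosome 4, 154056253 to 154140208) were listed at 0 in both libraries. Ribosomal protein genes, which are abundant, were not lost in this way, as 0 of 72 was at 0 in a library. This does not check genes of low level. For *Trp63*, with its longest transcript, an upper limit of 3 fragments corresponds to 0.0266 FPKM in KPR- and 0.0260 in KPRrestored. For *Trp73*, likewise with its longest transcript, it corresponds to 0.0283 and 0.0277 FPKM. With the shortest coding transcripts these limits were 0.0902 and 0.0882 for *Trp63* and 0.0687 and 0.0671 for *Trp73*. Neither relative of p53 was detectable at this depth, and no difference can be given for them.

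**Figure D1:**
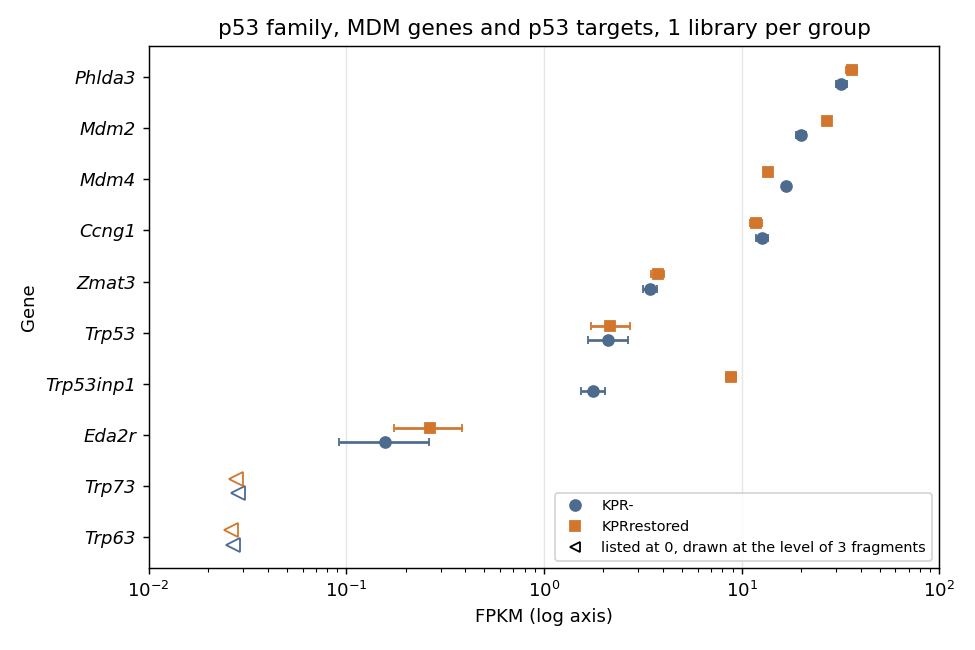
FPKM (log axis) of the 10 genes in KPR- (circles) and KPRrestored (squares), with 95% Poisson intervals of the estimated fragments, 1 library per group. *Trp63* and *Trp73*, listed at 0, are drawn as open triangles at the level of 3 fragments. *Trp53inp1* moves from 1.78 to 8.85 FPKM, while the markers of the other detected genes lie close to each other.

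The promoters give the sequence background for the MDM genes and targets. RefSeq promoters (GRCm38.p6) were found for 7 of the 10 genes, with 9 entries, and not for *Trp63*, *Zmat3* and *Trp53inp1*. Each window of 280 bases, from 250 before the start to 30 from the start on, was searched on both strands for the p53 half-site consensus of 10 bases, for the full p53 site of 20 bases made of adjacent half-sites with at most 1 mismatch, for the RUNX motif TGTGGT and for the ATF4-CHOP motif TGATGNAA. The half-site was found in 3 of the 9 windows, those of *Trp53*, *Mdm2* and *Ccng1*, against 7.84% of 32841 RefSeq promoters. The full site was found in that of *Ccng1*, against 0.0822% of all promoters, and the exact half-site of *Ccng1* forms the 3′ part of it. The RUNX motif was found in 2 windows, those of *Ccng1* and the upstream start of *Mdm4*, against 15.6% of all, and the ATF4-CHOP motif in 0 of 9, against 3.81%. Such matches describe letters and not binding, and the p53-responsive promoter of *Mdm2* lies in its first intron, outside this window.

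The 4 windows that hold a match are shown because they belong to the regulators and to the target with the full p53 site, 5′ to 3′ on the strand of the gene, with p53 sites and RUNX motifs in capitals. *Trp53* (chr11:69580109-69580388, plus strand) has its half-site at position -75, counted from 0 at the start base, *Mdm2* (chr10:117710729-117711008, minus strand) at -186, and *Ccng1* (chr11:40755257-40755536, minus strand) has its full site from -195 and its RUNX motif, read on the other strand, from -5. In *Mdm4* (chr1:133030558-133030837, minus strand) the RUNX motif lies at 9, downstream of the start.
Trp53: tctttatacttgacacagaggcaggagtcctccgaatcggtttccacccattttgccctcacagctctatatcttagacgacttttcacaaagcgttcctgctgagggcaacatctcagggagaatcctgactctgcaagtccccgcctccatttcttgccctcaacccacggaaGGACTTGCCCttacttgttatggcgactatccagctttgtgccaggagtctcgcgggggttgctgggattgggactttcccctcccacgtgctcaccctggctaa
Mdm2: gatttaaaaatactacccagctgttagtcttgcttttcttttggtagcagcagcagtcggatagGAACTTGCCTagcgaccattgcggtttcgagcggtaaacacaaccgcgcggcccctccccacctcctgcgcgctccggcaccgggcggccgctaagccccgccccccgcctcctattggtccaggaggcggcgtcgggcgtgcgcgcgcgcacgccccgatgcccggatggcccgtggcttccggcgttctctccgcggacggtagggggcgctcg
Mdm4: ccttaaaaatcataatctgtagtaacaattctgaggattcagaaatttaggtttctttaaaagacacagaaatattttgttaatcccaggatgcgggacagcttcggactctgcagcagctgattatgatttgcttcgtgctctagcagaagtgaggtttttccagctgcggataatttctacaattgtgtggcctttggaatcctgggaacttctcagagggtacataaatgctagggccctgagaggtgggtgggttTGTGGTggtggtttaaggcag
Ccng1: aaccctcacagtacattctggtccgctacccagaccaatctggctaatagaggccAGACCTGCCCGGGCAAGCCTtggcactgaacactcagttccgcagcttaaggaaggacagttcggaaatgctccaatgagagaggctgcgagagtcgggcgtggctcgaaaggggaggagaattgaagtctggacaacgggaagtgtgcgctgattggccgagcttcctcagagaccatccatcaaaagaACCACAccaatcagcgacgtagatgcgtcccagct

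*Mdm2* and *Mdm4* differed in opposite directions, both by less than 0.5 on the log2 scale. *Mdm2* (chromosome 10, 117688875 to 117710758) had 19.995 FPKM in KPR- and 27.1 FPKM in KPRrestored, from about 1265 and 1753 fragments. *Mdm4* (chromosome 1, 132959484 to 133030561) had 16.8 FPKM in KPR- and 13.6 FPKM in KPRrestored, from about 2544 and 2097 fragments. The log2 difference was 0.44 for *Mdm2*, with an interval of 0.33 to 0.54, and -0.31 for *Mdm4*, with an interval of -0.40 to -0.23. Both intervals lie off 0, but so did those of 67.5% of the 10791 expressed genes with estimated fragments (34.3% above 0 and 33.2% below), so counting error is small beside the differences between these libraries in general. The FPKM of *Mdm2* was 1.19 times that of *Mdm4* in KPR- and 1.99 times in KPRrestored, a log2 difference between the ratios of 0.75. Of the 11231 expressed genes, 14.6% had a larger difference than *Mdm2* and 18.8% a smaller one than *Mdm4*. *Mdm4* has RefSeq coding transcripts of 1914 to 7105 bases, and with the shortest its estimated fragments were 629 and 518 and its interval -0.48 to -0.14. The annotation also names a processed pseudogene of *Mdm4*, not among the listed genes.

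*Trp53inp1* (chromosome 4, 11156431 to 11174379), whose protein acts in p53-dependent stress responses and in autophagy, was the gene that stood apart. It had 1.78 FPKM in KPR- and 8.85 FPKM in KPRrestored, from about 202 and 1030 fragments. This is 4.99 times the KPR- value, a log2 difference of 2.32 with an interval of 2.10 to 2.54. Of the 11231 expressed genes, 35 had a larger difference. In KPR- its level was 0.837 times that of *Trp53*, with overlapping counting intervals, and in KPRrestored it was 4.08 times that of *Trp53*.

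*Eda2r* (chromosome X, 97333840 to 97377216), which encodes a receptor of the TNF receptor family, was the other gene past 0.5. It had 0.157 FPKM in KPR- and 0.265 FPKM in KPRrestored, a log2 difference of 0.73. Only about 16 and 27 fragments stood behind these values, and the interval of -0.22 to 1.71 includes 0, so the difference was not detectable at this depth.

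The remaining targets differed little. *Ccng1* (chromosome 11, 40748552 to 40755311), which encodes cyclin G1, had 12.7 FPKM in KPR- and 11.8 FPKM in KPRrestored, from about 917 and 875 fragments. Its log2 difference was -0.10, with an interval of -0.24 to 0.04. Its promoter is the one with the full p53 site shown above. *Zmat3* (chromosome 3, 32334792 to 32366014), which encodes an RNA-binding zinc finger protein, had 3.43 and 3.76 FPKM, from about 570 and 639 fragments. Its log2 difference was 0.13, with an interval of -0.03 to 0.30. *Phlda3* (chromosome 1, 135766119 to 135769136), which encodes a repressor of Akt, had 32.0 and 36.0 FPKM, from about 859 and 989 fragments. Its log2 difference was 0.17, with an interval of 0.04 to 0.30. Targets of p53 were thus transcribed in both libraries, with *Phlda3* at the highest level of the 10 genes.

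In all, 2 of the 10 genes were higher in KPRrestored by 0.5 or more on the log2 scale and 0 were lower, where 13.8% of the 23183 genes were higher and 12.9% lower. The median difference was 0.08, against 0 over all genes, where genes listed at 0 in both libraries (*Trp63* and *Trp73* here, 6675 of all genes) enter as 0. Over the 7 expressed genes it was 0.13, against 0.0086 over all expressed genes. Among those 7, *Trp53inp1* was the gene past the threshold, where 12.1% of all expressed genes were higher and 9.29% lower, and 4 of the 7 intervals lay off 0, those of *Mdm2*, *Phlda3* and *Trp53inp1* above and that of *Mdm4* below. The order of levels in KPR- was *Phlda3*, *Mdm2*, *Mdm4*, *Ccng1*, *Zmat3*, *Trp53*, *Trp53inp1* and *Eda2r*. The counting intervals of neighbours overlapped only for *Trp53* and *Trp53inp1*. In KPRrestored *Trp53inp1* stood between *Ccng1* and *Zmat3*, with no overlap between neighbours, and the other genes kept their order. These overlaps rest on the longest transcripts. They were not checked with the shortest, where *Mdm4* has fewer fragments and a wider interval. No gene was named for a pattern like one of these, because a pair of libraries gives each gene a single difference.

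**Figure D2:**
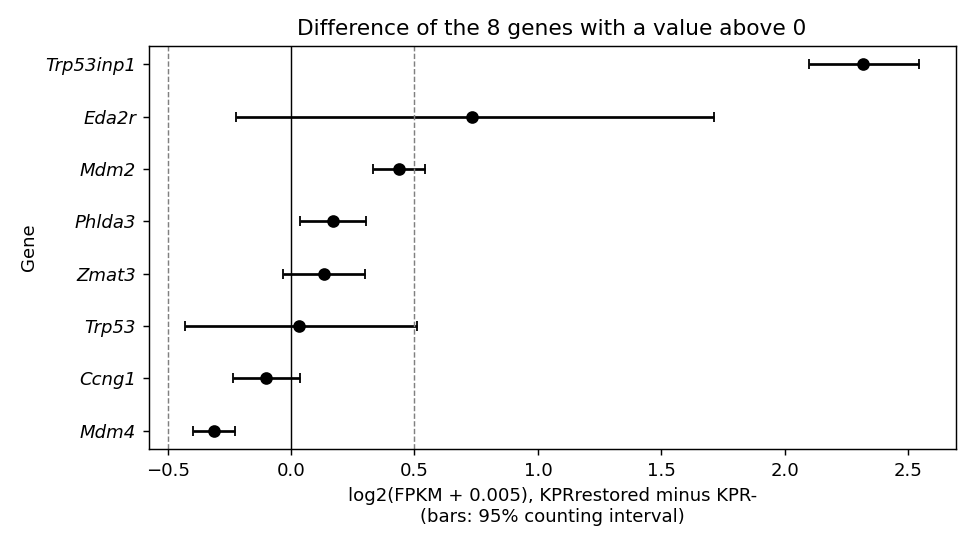
Difference of log2(FPKM + 0.005), KPRrestored minus KPR-, for the 8 genes with a value above 0, with 95% counting intervals as bars and the 0.5 threshold as dashed lines. *Trp53inp1* lies at 2.32, beyond the threshold with its whole interval, while the intervals of *Eda2r*, *Zmat3*, *Trp53* and *Ccng1* cross 0.

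**Figure D3:**
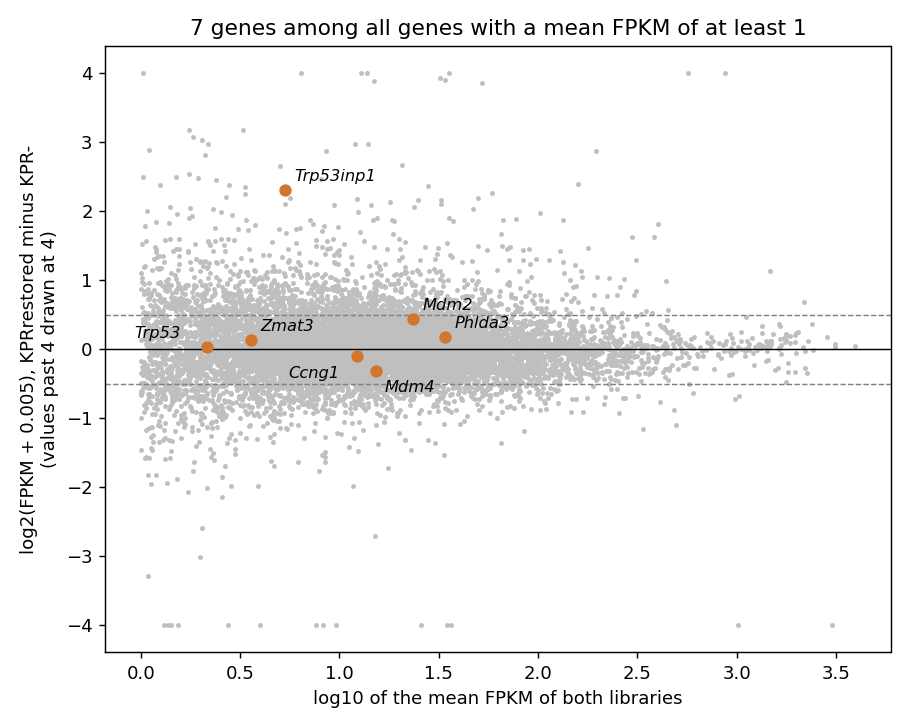
Difference (log2, KPRrestored minus KPR-) against the log10 of the mean FPKM for the 11231 expressed genes (mean FPKM 1 or more) (grey), with the 7 such genes of the p53 group in orange. Those other than *Trp53inp1* lie between -0.31 and 0.44, inside the dashed lines at 0.5 (values past 4 either way are drawn at 4).

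To set these genes in their pathway, fixed lists of other p53 targets and of regulators of p53 were described in the same way. Of 38 further p53 targets, 7 lay above 0.5, 1 below -0.5 and 30 between them, with a median of 0.04. Over all genes 13.8% were higher and 12.9% lower. The 7 higher genes are near that share and the 1 lower gene is under it, which was not tested. Of the 36 expressed targets, 6 were higher and 1 lower, where 12.1% of all expressed genes were higher and 9.29% lower. Among the 7 higher targets, *Dram1* rests on about 21 and 33 fragments, with an interval of -0.21 to 1.48, and *Dcxr* on about 45 and 69. Those with the largest differences were *Cdkn1a*, *Btg2* and *Plk3*. *Cdkn1a*, which encodes the CDK inhibitor p21, had 14.2 FPKM in KPR- and 39.6 in KPRrestored, which differ by 1.48 on the log2 scale, with an interval of 1.34 to 1.63. *Btg2*, an antiproliferative gene, had 2.27 and 7.65 FPKM (log2 difference 1.75), and *Plk3*, a stress-responsive kinase gene, had 5.57 and 14.4 FPKM (log2 difference 1.37). The lower gene was *Pidd1*, which encodes an adaptor for caspase-2, with 5.21 and 2.66 FPKM and a log2 difference of -0.97. *Ephx1* (epoxide hydrolase) and *Perp* (a desmosome-linked membrane protein) had differences of -0.48 and -0.38, within the threshold.

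Of the 7 p53 targets that ATF4 or its partner CHOP also drive, 6 lay above 0.5 and 0 below -0.5, with a median of 1.37. All 7 were expressed. Of all expressed genes 12.1% were higher and 9.29% lower, and their median was 0.0086. *Gdf15*, which encodes a stress cytokine, had 1.88 FPKM in KPR- and 28.0 FPKM in KPRrestored, a log2 difference of 3.89 on about 55 and 837 fragments. *Sesn2* and *Gadd45a*, an mTORC1 inhibitor gene and a growth arrest gene, had differences of 2.09 and 1.90. The gene within the threshold was *Tnfrsf10b*, a death receptor gene, with 31.9 and 32.6 FPKM. Lists chosen with earlier results of these data known cannot be taken as independent evidence of this contrast, and the difference between the lists was not tested.

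Of 38 regulators of p53, 0 lay above 0.5 and 3 below -0.5, with a median of -0.12. Over all genes 13.8% were higher and 12.9% lower, and over the expressed genes 12.1% and 9.29%. The 0 higher regulators are thus under the background, and the 3 lower ones are no more than it gives. Of the 37 expressed regulators, 12 had a difference above 0 and 25 below, which was not tested. The 3 lower regulators are described as single genes. Their longest transcripts are long, with 9787 bases for *Atm*, 14579 for *Huwe1* and 8102 for *Atr*. *Fat2*, a p63 target described below, has 14423 bases and a difference of 0.49. Whether the differences follow transcript length was not tested. *Atm*, which encodes the kinase that signals DNA breaks to p53, had 6.88 and 3.61 FPKM, a log2 difference of -0.93 with an interval of -1.06 to -0.81. *Huwe1*, a ubiquitin ligase gene, had 53.9 and 36.7 FPKM, a log2 difference of -0.56. The third was *Atr*, a kinase of replication stress, with 5.76 and 4.04 FPKM and a log2 difference of -0.51. *Chek2*, the kinase that acts with ATM, had a difference of -0.46. At the other end, *Trp53bp2*, *Gltscr2* and *Kat5* had differences of 0.39, 0.37 and 0.32, within the threshold. *Cdkn2a*, whose transcripts encode Arf and Ink4a, had 206 and 244 FPKM, from about 3096 and 3749 fragments. Its difference was 0.24, with an interval of 0.17 to 0.31. By immunoblot, the paper reports Arf protein in KPRrestored cells but not in KPR- cells. The RNA value per gene does not separate Arf from Ink4a and does not measure protein.

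Since *Trp63* and *Trp73* were listed at 0, genes linked to p63 and p73 were set beside them. Of 13 basal and squamous genes known as p63 targets, 3 were higher and 3 were lower by 0.5 or more, and 8 were expressed. Over all genes 13.8% were higher and 12.9% lower. Of these 6 calls, the higher *Satb1* (about 1 and 3 fragments) and *Col17a1* (2 and 4) and the lower *Krt15* (4 and 2) have intervals across 0, too few fragments for a direction. With a pseudocount of 0.1, 1 gene was higher. The lower *Fras1*, a basement membrane gene, had 0.322 and 0.122 FPKM, from about 110 and 43 fragments. *Krt14* (keratin 14) had 2.49 and 3.59 FPKM, a log2 difference of 0.53, and *Igfbp3*, which binds insulin-like growth factors, had 219 and 134 FPKM, a difference of -0.71. *Itga3* (integrin alpha 3), at 286 and 224 FPKM, had a difference of -0.35. The other named genes of the list had differences of 0.49 for *Fat2*, 0.05 for *Cdh3* and -0.34 for *Dst*. The basal keratin gene *Krt5* had 0.208 and 0.179 FPKM, from about 9 and 8 fragments. Of the 7 multiciliated cell genes linked to p73, 3 were lower and 2 higher, against the same shares of all genes. *Foxj1*, a master regulator of motile cilia, had 2.78 and 0.656 FPKM, from about 147 and 35 fragments, a difference of -2.07 with an interval of -2.68 to -1.56. *Rfx2* and *Myb* had differences of -0.50 and -1.50, *Myb* from about 30 and 11 fragments. *Ccno* and *Mcidas* passed the threshold upward from 0 fragments in KPR- to about 1 in KPRrestored, too few for a direction. In RNA from a whole culture, fewer cells of a type and less RNA per cell cannot be told apart.

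**Figure D4:**
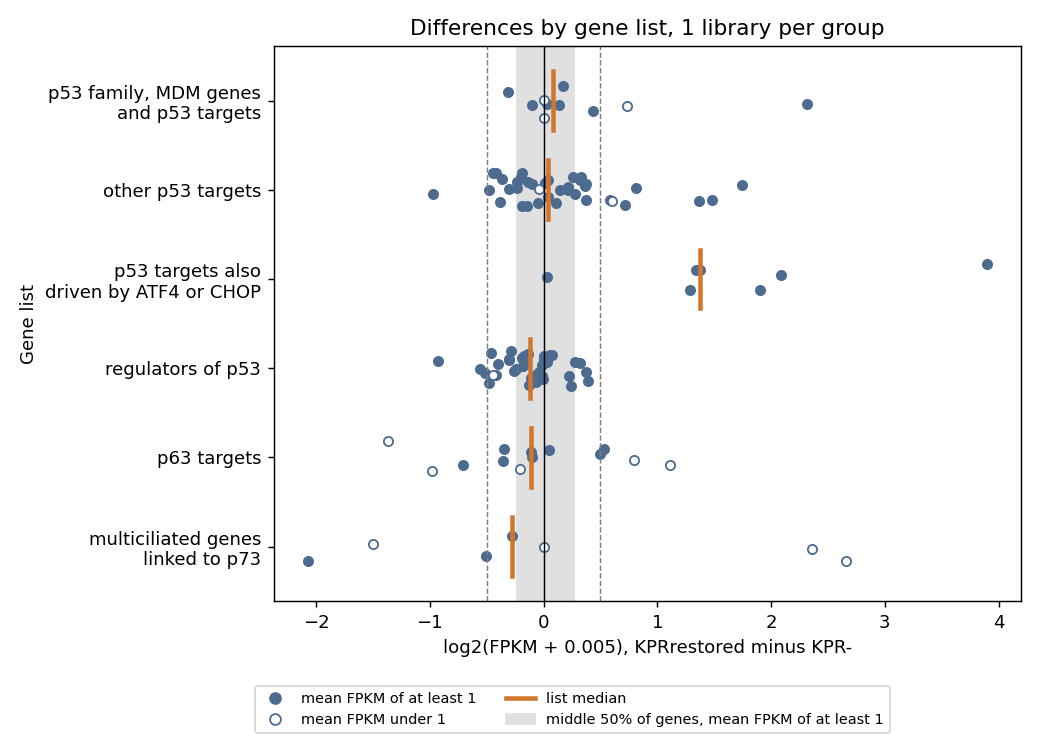
Difference (log2, KPRrestored minus KPR-) of each gene in 6 lists, filled for expressed genes and open for others, with list medians in orange, the middle 50% of the 11231 expressed genes (mean FPKM 1 or more) in grey, and dashed lines at the 0.5 threshold. The medians are 0.08 for the p53 group (*Trp63* and *Trp73* drawn at 0), 0.04 for other p53 targets and 1.37 for the targets shared with ATF4 or CHOP.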

How the data were processed

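mRNA sequencing of KPR- and KPRrestored cells (1 library each) was used. The authors selected poly(A) RNA, prepared directional libraries, trimmed the paired-end reads, mapped them to mm10 using TopHat and deposited FPKM values per gene estimated using Cufflinks. The paper also names a geometric normalization of read counts using EdgeR. Whether it scaled the deposited values, and with them the fitted depths, was not checked. TopHat and mm10 are also named in the submitters' processing notes. Versions, the annotation and the strand setting are not given in the sources used here.

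Genes were matched by symbol, and 3 listed genes through an older one. Differences were log2(FPKM + 0.005), KPRrestored minus KPR-, and a gene was called past 0.5 either way. This scale follows the study's own table and understates the change of genes near the pseudocount. Depth was fitted to 3748 genes of a single RefSeq-linked GENCODE M21 transcript of 600 to 8000 bases, with a common fragment length of 210 bases. Of their values of 0.5 to 5.5 fragments, 79.7% in KPR- and 82.6% in KPRrestored lay within 0.1 of a whole number. Fragments of 21963 genes were rounded to whole numbers. They are upper estimates where transcripts differ in length, and intervals cover counting error only. The procedure was tested on simulated data of known depth.

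Genes named were the 10 members, *Runx3* and, in each list, the 3 genes furthest up and the 3 furthest down on the log2(FPKM + 1) scale. *Atr*, *Tnfrsf10b*, *Cdkn2a*, *Dram1*, *Dcxr*, *Satb1*, *Col17a1*, *Krt15*, *Fras1*, *Krt5* and the cell type markers were named after their values were seen. Members and lists were chosen with earlier results of these data known. Alternatives were pseudocounts of 0.1 and 1, a mean FPKM of at least 1, a common FPKM total, centring on the median gene, a threshold of 1, and the shortest coding transcript. Calculations were run in Python 3.11.15 with scipy 1.17.1 for intervals, pandas 2.3.3 and numpy 2.4.6 for tables, and matplotlib 3.10.9 for plots.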

Additional observations from a re-analysis of the deposited data

How the results depend on the processing

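Differences of the 8 detected genes kept their sign under the alternatives run, and 1 moved past its counting interval, that of *Trp53inp1*, to 1.83 with a pseudocount of 1. The genes higher by 0.5 or more fell from 2 to 1 with a pseudocount of 1 and with a mean FPKM of at least 1, both through the low level of *Eda2r*, and 1 gene passed a threshold of 1, which the *Eda2r* difference of 0.73 does not reach. With a pseudocount of 0.1, p63 targets had 1 higher gene and multiciliated genes 0. With a pseudocount of 1, p63 targets had 0 higher and 1 lower, multiciliated genes 0 higher and 1 lower, and all genes 1141 higher and 836 lower. With a mean FPKM of at least 1, p63 targets had 1 higher and 1 lower, multiciliated genes 0 higher, and all genes 1358 higher and 1043 lower. With a threshold of 1, other p53 targets had 3 higher and 0 lower, regulators 0 lower, p63 targets 1 higher and 1 lower, and all genes 1625 higher and 1527 lower. A common FPKM total and centring on the median gene left each count within 1.5 times its value. With the shortest coding transcripts, 4 intervals still lay off 0. No paired analysis was possible because each group has 1 library, and no replicate could be left out. Depth limits *Eda2r*, whose interval includes 0, and *Trp63* and *Trp73* cannot be compared.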
